A study of Homo sapiens with 15 samples.

Results

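HMGA2 and 5 other genes classed as oncofetal were followed in Caco-2 cells, a colon carcinoma line of epithelial origin. Oncofetal genes are active in the embryo and in many tumours and, as a class, lower in adult tissue. Among the 6, IGF2BP2 is more widely expressed in adults than IGF2BP3. The 6 genes, of 19775 read by the array, were chosen by name: the chromatin proteins HMGA1 and HMGA2, the microRNA regulator LIN28B, and the RNA-binding proteins IGF2BP1, IGF2BP2 and IGF2BP3. The choice was made with the lower level of HMGA2 at 2% than at 0% polydextrose already known, so for HMGA2 that comparison and its dose slopes within vessel 1 and within vessels 2 to 4 are given as a description, with no p. The other tests of HMGA2 use some of the same arrays and are not independent of the choice. It was not recorded which other results were known, so tests of the other members may not be independent of the choice either. For each gene the probe set brightest on average across the 15 arrays was used, and its other probe sets served as a check.

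The cells had not differentiated, and each treatment lasted 24 h without serum. A total of 12 arrays came from cells given cell-free fluid, at 10% by volume, from a colon simulator in which gut bacteria had fermented polydextrose, a poorly digested glucose polymer, for 48 h. Fluids of 0%, 1% and 2% polydextrose were each taken from 4 linked vessels that stand for the colon from its ascending part (vessel 1) to its sigmoid and rectal part (vessel 4). The other 3 arrays were 5 mM butyrate, a bacterial fatty acid that inhibits histone deacetylases, 100 mM NaCl, a salt control, and medium alone. All 15 arrays used the same cell line and medium, and each treatment was read once. The 4 fluids of a concentration came from a single simulation, so simulation and concentration cannot be told apart, and p-values measure only the spread between these arrays.

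HMGA1 and HMGA2 carry AT-hooks, short motifs that grip the minor groove of AT-rich DNA and bend chromatin so that other factors can bind. HMGA2 messenger RNA (mRNA) is a classic target of the let-7 microRNAs, which are scarce in embryonic cells and abundant in differentiated ones, and the IGF2BP mRNAs are let-7 targets too. LIN28B blocks the maturation of let-7 precursors. The IGF2BP proteins bind mRNAs, in part through the modified base m6A, and protect them or place them in the cell. In the gut epithelium oncofetal genes are, as a class, linked to fetal and tumour cells more than to mature enterocytes.

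The let-7 microRNAs recognise their targets by a shared seed, and 4 mature sequences from RefSeq (GRCh38.p14) are shown because this seed links HMGA2, LIN28B and the IGF2BP genes. Capitals mark the seed, bases 2 to 8.
hsa-let-7a-5p: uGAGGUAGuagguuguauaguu
hsa-let-7b-5p: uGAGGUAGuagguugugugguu
hsa-let-7g-5p: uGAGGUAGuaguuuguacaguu
hsa-miR-98-5p: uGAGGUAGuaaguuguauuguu
All 9 mature let-7 family names in the RefSeq table, from 12 loci, carried this seed, among 11 of 2370 mature names that did. The array reads mRNAs and long transcripts and gave no level of a mature microRNA.

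Values are on a log2 scale, so that a difference of 1 is a doubling, and a value under 5 was taken as too low to measure. Genes with at least 5 on at least 4 of the 12 fluid arrays were tested, which left 8737, and 4 of the 6 oncofetal genes were among them. Epithelial identity was visible in EPCAM, CDH1, KRT8, KRT18, KRT19, KRT20 and TFF3, 7 of 12 markers, which were at 5 or more on all 15 arrays. The other 5 (VIL1, CDX1, CDX2, LGALS4 and FABP1) were under 5 on every array, against the label of an intestinal line. All 5 leukocyte markers measured and 6 of 8 fibroblast markers were under 5 throughout. COL1A1 reached 5 on 13 arrays and VIM on 3. The log2 of the summed fibroblast marker level was 7.08 to 7.41 at 0%, 6.48 to 7.73 at 1% and 7.22 to 8.52 at 2%, with 8.71 in butyrate, 5.47 in NaCl and 5.39 in medium. Its part in the results was not tested. Because the cultures were read in bulk, fewer cells with a transcript and less of it per cell cannot be told apart.

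**Figure D1:**
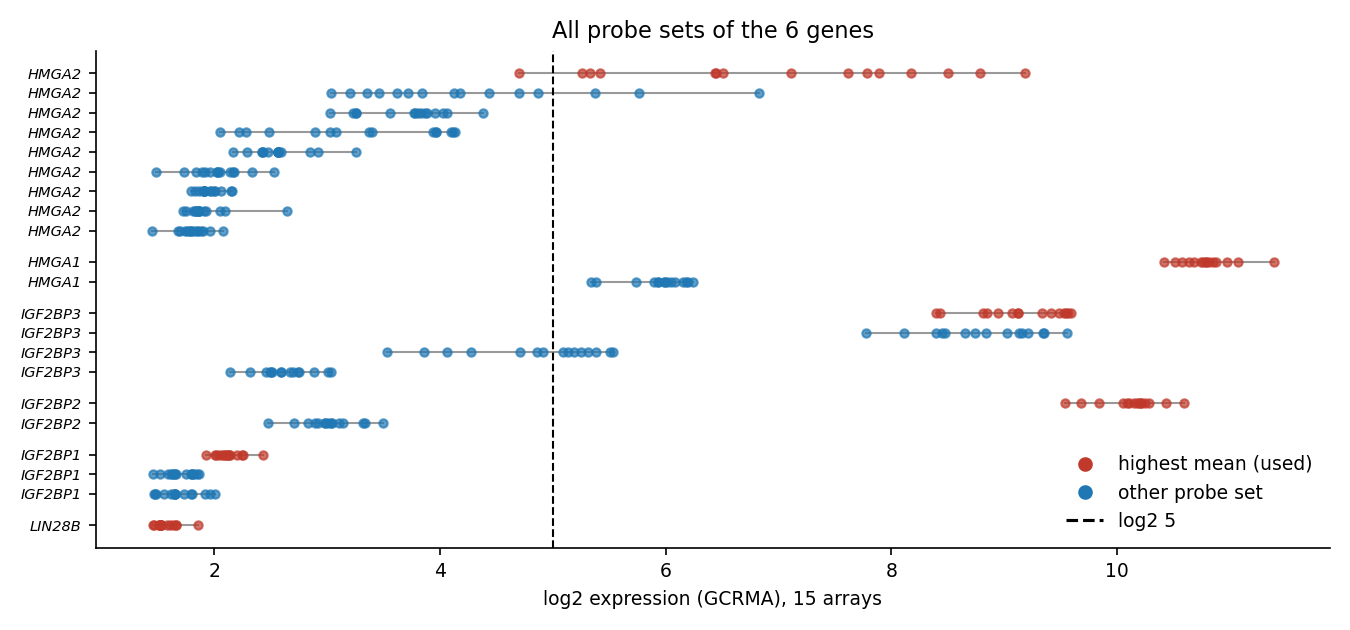
Each row is 1 probe set of the 6 genes and each point 1 of the 15 arrays, in log2 expression, with red for the probe set used and blue for the others. The dashed line is the limit of 5: LIN28B and IGF2BP1 lie below it on all arrays, and HMGA2 is read well by 1 of its 9 probe sets.

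HMGA2 was lower at each higher polydextrose concentration in all 4 vessels, and the steps were small in vessel 1. In vessel 1 HMGA2 read 8.79 at 0%, 8.50 at 1% and 8.17 at 2%. In vessel 2 it read 7.79, 6.45 and 5.33 at 0%, 1% and 2%, in vessel 3 it read 7.89, 6.51 and 5.26, and in vessel 4 it read 7.62, 6.44 and 5.42. Within each concentration vessels 2 to 4 lay close together and vessel 1 lay above them. Over vessels 2 to 4 HMGA2 averaged 7.77 ± 0.14 at 0%, 6.47 ± 0.04 at 1% and 5.34 ± 0.08 at 2% (SD, n = 3 each). The difference between 2% and 0% was -0.61 in vessel 1, -2.46 in vessel 2, -2.63 in vessel 3 and -2.20 in vessel 4. As a ratio, HMGA2 at 2% stood at 0.654 times its 0% level in vessel 1, against 0.182, 0.161 and 0.218 times in vessels 2, 3 and 4. Both steps had this form. At 1% against 0% the HMGA2 difference was -0.28 in vessel 1, while vessels 2, 3 and 4 had -1.34, -1.38 and -1.18. At 2% against 1% it was -0.33 in vessel 1, and the other vessels had -1.11, -1.26 and -1.02.

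**Figure D2:**
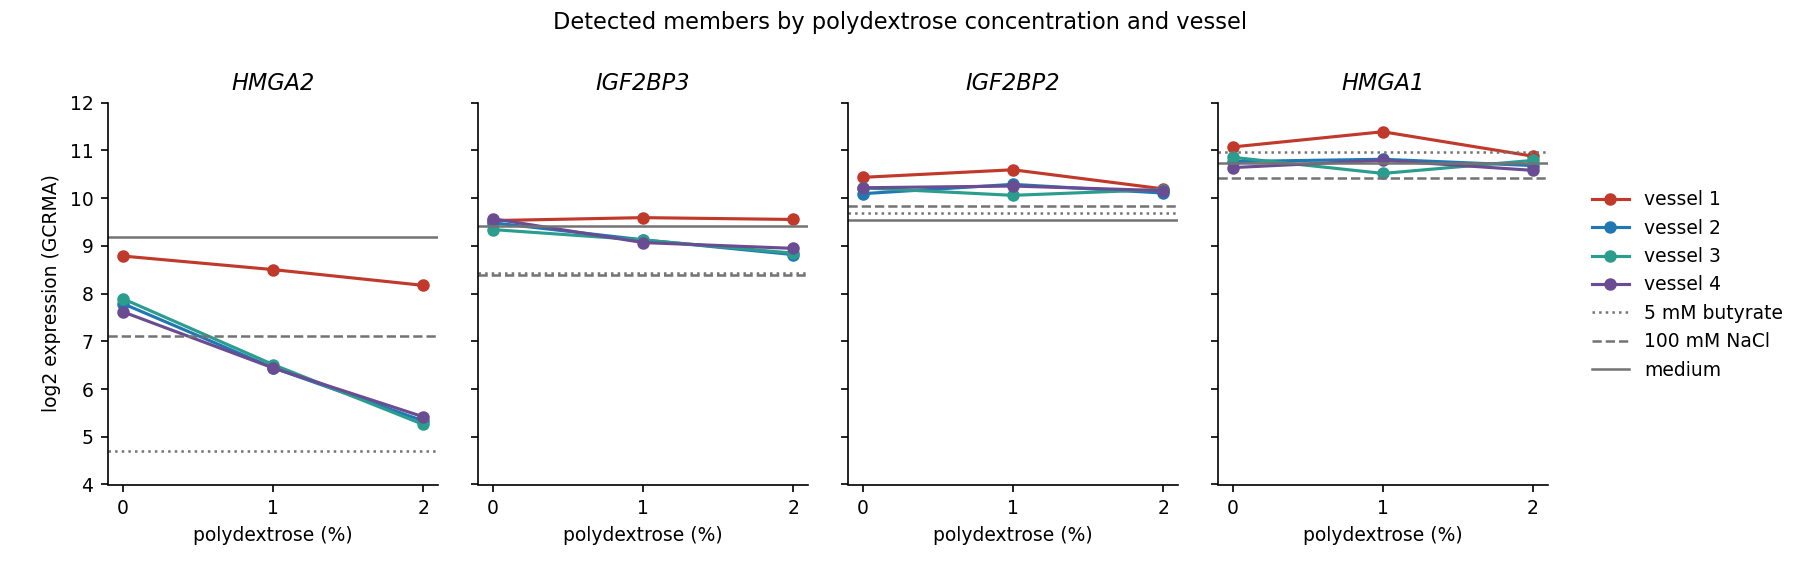
Log2 expression of the 4 tested genes is plotted against polydextrose concentration (%), with 1 line per vessel and 1 point per array, and horizontal lines for the single butyrate, NaCl and medium arrays. For HMGA2 the red line of vessel 1 runs from 8.79 to 8.17 while the other vessels start between 7.62 and 7.89 at 0% and end between 5.26 and 5.42 at 2%; for IGF2BP3 the vessels overlap at 0%, and vessel 1 lies above the others at 1% and 2%.

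In the fit across all genes (limma, Benjamini-Hochberg over the 8737 genes), 2 of the 4 tested members were past the threshold for 2% against 0%, beside 20.8% of all genes tested. These were HMGA2, with a mean log2 change of -1.98 (SE 0.27), rank 3 from the lowest of all genes tested, and IGF2BP3. Because HMGA2 was chosen on this comparison the count describes the choice. For 1% against 0%, 0 of 4 passed in limma, beside 4.78% of all genes, with 2 of 4 at an unadjusted p under 0.05, as for 24.9% of all genes. HMGA2 was at -1.04 (SE 0.27, adjusted p = 0.0609), in the same direction in 4 of 4 vessels. Without the vessel 1 arrays it fell by 1.30. That fit reads a step of the slope in vessels 2 to 4, which is given as a description for HMGA2, so no p is given. With single arrays left out, HMGA2 passed without vessel 1 of 0% (adjusted p = 0.00481) or vessel 1 of 2% (adjusted p = 0.0182). All these fits share arrays with the comparison by which HMGA2 was chosen, so none is independent evidence of a fall. For 2% against 1% limma passed 0 of 4 members and 0% of all genes, 0 of 8737, with 1608 at an unadjusted p under 0.05. HMGA2 was at -0.93 there (adjusted p = 0.168), and without vessel 1 of 0% alone the adjusted p was 0.0185. Without the vessel 1 arrays altogether HMGA2 fell by 1.13, given with no p for the same reason.

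The dose slope of HMGA2 was shallower in vessel 1 than in vessels 2 to 4. Per 1% of polydextrose its log2 level changed by -0.31 (SE 0.08) in vessel 1 and by -1.21 (SE 0.05) in vessels 2 to 4. The difference of these slopes was 0.91 (SE 0.09, 95% confidence interval 0.70 to 1.12, adjusted p = 0.0144, limma). HMGA2 was the only 1 of the 4 members to pass this comparison, beside 0.801% of all genes tested, 70 genes of which 49 had the higher slope in vessel 1. This test rests on arrays that also entered the comparison by which HMGA2 was chosen, so it is no independent evidence of the pattern. For the slope in vessel 1 alone limma passed 0 members and 0% of all genes, with 844 genes at an unadjusted p under 0.05. In vessels 2 to 4, 2 of the 4 members were past the threshold, beside 28.0% of all genes; for HMGA2 this describes the choice, and the other was IGF2BP3. Left out in turn, 2 arrays ended the call of the slope difference: without vessel 1 of 0% the adjusted p was 0.0954, and without vessel 4 of 0% it was 0.0580.

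**Figure D3:**
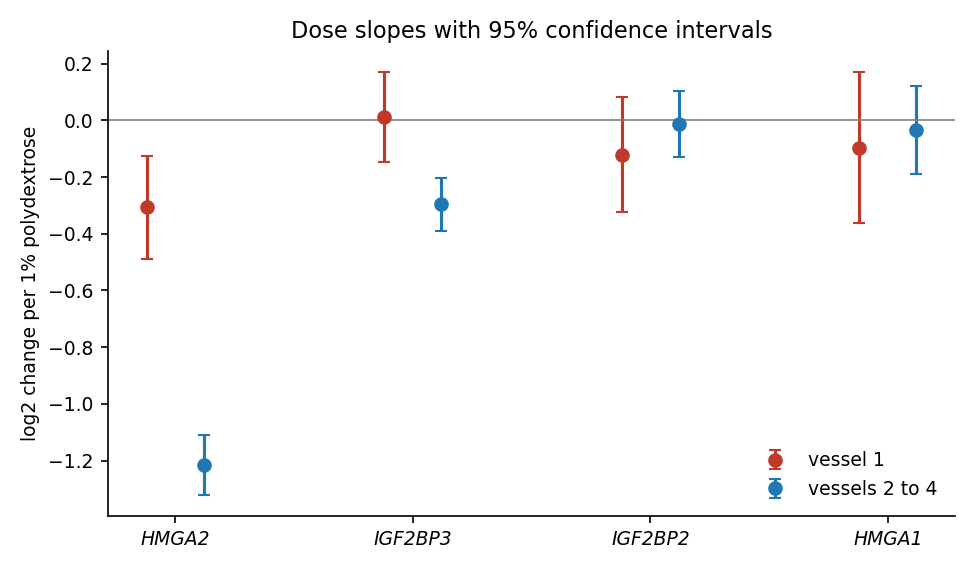
The log2 change per 1% of polydextrose is shown for each tested gene, with 95% confidence intervals from limma that are not adjusted for multiple tests, vessel 1 in red left of vessels 2 to 4 in blue. For HMGA2 the slopes are -0.31 and -1.21, and its intervals are only a description because it was chosen on these arrays. For IGF2BP2 and HMGA1 all intervals include 0.

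At all concentrations HMGA2 was higher in vessel 1 than in vessels 2 to 4, by 1.96 on the log2 scale (SE 0.26, adjusted p = 0.00116, limma). In this comparison 3 of the 4 tested members passed, all higher in vessel 1, beside 34.7% of all genes tested. IGF2BP3 was higher by 0.41 (SE 0.11, adjusted p = 0.0162) and HMGA1 by 0.40 (SE 0.11, adjusted p = 0.0205), while IGF2BP2 was at 0.23 (SE 0.08, adjusted p = 0.0540). In the fit without concentration as a block none of these passed, with adjusted p = 0.0692 for HMGA2, 0.101 for IGF2BP3 and 0.0639 for HMGA1. Without vessel 1 of 1% the calls of IGF2BP3 (adjusted p = 0.0869) and HMGA1 (adjusted p = 0.136) were lost. Without vessel 1 of 2% that of IGF2BP3 was lost (adjusted p = 0.102) and IGF2BP2 passed (adjusted p = 0.0356), as it did without vessel 3 of 2% (adjusted p = 0.0453). A second HMGA1 probe set, at 0.17, did not pass here (adjusted p = 0.236). Over all alternatives, those above included, IGF2BP3 lost its call in 4 of 22. IGF2BP2 passed in 4 of 20, with a lowest adjusted p of 0.0305 in limma. As a sign of RNA quality, ACTB was read near both ends, and its 3′ value exceeded its 5′ value by 0.62 to 0.92 in vessel 1 and 0.37 to 0.64 in vessels 2 to 4. For GAPDH the same difference was -0.11 to 0.04 in vessel 1 and -0.11 to -0.06 in vessels 2 to 4. The part of RNA quality in these results was not tested.

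HMGA2 has 9 probe sets on the array, and only 1 other ever reached the limit. That probe set read 5.77 in vessel 1 at 0%, 5.37 in NaCl and 6.83 in medium, and under 5 on the other 12 arrays. Its difference between 2% and 0% was -1.06 in vessel 1 and -0.94 on average in vessels 2 to 4, so the vessel pattern of the probe set used was not seen in it, with nearly all of these values under the limit. A further HMGA2 probe set, under 5 on all arrays, had -0.13 in vessel 1 and -1.24 in vessels 2 to 4. Across the 15 arrays these 2 probe sets had a Pearson r of 0.83 and 0.94 with the 1 used, given as a description.

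IGF2BP3 fell with polydextrose in vessels 2 to 4, to a smaller extent than HMGA2. IGF2BP3, an mRNA-binding protein found in fetal tissue and carcinomas, read 9.53, 9.59 and 9.55 at 0%, 1% and 2% in vessel 1. In vessel 2 it read 9.48, 9.13 and 8.82, in vessel 3 it read 9.34, 9.12 and 8.85, and in vessel 4 it read 9.57, 9.07 and 8.95. Vessel 1 was level across concentrations, and each later vessel stepped down with each concentration. IGF2BP3 averaged 9.46 ± 0.11 at 0%, 9.10 ± 0.03 at 1% and 8.87 ± 0.07 at 2% over vessels 2 to 4 (SD, n = 3 each). Its slope there was -0.30 per 1% (SE 0.04, adjusted p = 0.00117, limma), and in vessel 1 it was 0.01 (adjusted p = 0.982). The difference of slopes was 0.31 (SE 0.08, 95% confidence interval 0.12 to 0.49) and did not pass (adjusted p = 0.116). IGF2BP3 too was chosen with earlier results of these data known, so its p-values may not be independent evidence of a fall.

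Over all 4 vessels IGF2BP3 fell by 0.44 at 2% against 0% (SE 0.11, adjusted p = 0.0257, limma), with 3 of 4 vessels lower. This call was lost without any 1 of the 6 arrays of vessels 2 to 4 at 0% or 2%, with adjusted p-values of 0.0816 to 0.100, and in the fit without vessel as a block (adjusted p = 0.214). With vessel 1 left out altogether IGF2BP3 fell by 0.59 (adjusted p = 0.00152). For 1% against 0% it was at -0.25 (adjusted p = 0.200), and without vessel 1 it fell by 0.36 (adjusted p = 0.0272); without vessel 1 of 0% alone the adjusted p was 0.0201. The other IGF2BP3 probe sets that reached the limit followed the 1 used. A second probe set fell by 0.62 at 2% against 0% (adjusted p = 0.0193) with a slope of -0.38 in vessels 2 to 4 (adjusted p = 0.00384). Another, at 5 or more on 8 of 15 arrays, was at -0.70 (adjusted p = 0.0533), with a slope of -0.49 in vessels 2 to 4 (adjusted p = 0.00301). Their slope differences between vessels, 0.27 (adjusted p = 0.349) and 0.56 (adjusted p = 0.148), had the same sign and did not pass.

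The 250 bases upstream of the start of IGF2BP3 and of its paralog IGF2BP2 are shown because IGF2BP3 fell in the fluids of vessels 2 to 4 and IGF2BP2 did not pass there. Both are from RefSeq, GRCh38.p14, minus strand, at chr7:23470492-23470741 for IGF2BP3 and chr3:185825043-185825292 for IGF2BP2. Capitals mark the E-box, CACGTG, the letters that MYC and related factors bind.
IGF2BP3: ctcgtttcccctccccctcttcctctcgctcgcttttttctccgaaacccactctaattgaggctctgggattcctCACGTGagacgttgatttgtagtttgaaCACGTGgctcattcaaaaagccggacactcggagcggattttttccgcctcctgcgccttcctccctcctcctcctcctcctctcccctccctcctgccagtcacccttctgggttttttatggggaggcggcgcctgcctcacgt
IGF2BP2: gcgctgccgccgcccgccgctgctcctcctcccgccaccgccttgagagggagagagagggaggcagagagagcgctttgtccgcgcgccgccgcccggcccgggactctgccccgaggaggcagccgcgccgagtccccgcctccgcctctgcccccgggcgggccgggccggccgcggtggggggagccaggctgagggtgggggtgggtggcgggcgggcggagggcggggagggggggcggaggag
IGF2BP3 held the E-box at positions 77 and 105 from the 5′ end of this window and IGF2BP2 held none. Of 27305 upstream windows of this length 6.5% held at least 1 E-box and 0.56% at least 2, counted on both strands, which are alike for this palindrome. The GC box, GGGCGG on either strand, occurred 7 times in the IGF2BP2 window, 5 times in that of HMGA1 and 0 times in that of IGF2BP3, against at least 1 in 42.3% of all windows, and some of the IGF2BP2 matches overlap. GC content was 81.6% for IGF2BP2 and 56.8% for IGF2BP3, with a median of 58.0% over all windows. HMGA2 and IGF2BP1 were not matched. These matches describe the letters and say nothing of binding in these cells.

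IGF2BP2 and HMGA1 had no dose effect that passed. IGF2BP2, a paralog that is more widely expressed in adults than IGF2BP3, read 10.43, 10.59 and 10.19 at 0%, 1% and 2% in vessel 1. The IGF2BP2 values of vessels 2 to 4 lay between 10.06 and 10.29, and those at 2% between 10.11 and 10.18. Its change for 2% against 0% was -0.08 (adjusted p = 0.542), and its slopes were -0.12 in vessel 1 and -0.01 in vessels 2 to 4 (adjusted p = 0.751 and adjusted p = 0.874, limma). HMGA1, the close relative of HMGA2 with the same AT-hooks, read 11.07, 11.39 and 10.88 at 0%, 1% and 2% in vessel 1. Its values in vessels 2 to 4 lay between 10.52 and 10.85. HMGA1 was at -0.10 for 2% against 0% (adjusted p = 0.565), with slopes of -0.10 in vessel 1 (adjusted p = 0.871) and -0.03 in vessels 2 to 4 (adjusted p = 0.745). For both genes vessel 1 gave the highest array at each concentration. The slope differences were -0.11 for IGF2BP2 (adjusted p = 0.659) and -0.06 for HMGA1 (adjusted p = 0.862). The second HMGA1 probe set (r 0.60 with the first over 15 arrays) was at -0.36 for 2% against 0% (adjusted p = 0.0558).

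LIN28B and IGF2BP1 were not measurable in any of the 15 cultures. LIN28B, read by 1 probe set, lay between 1.46 and 1.85. IGF2BP1 lay between 1.93 and 2.43 on its probe set with the highest mean, and its other probe sets were lower still, up to 2.01. At these values a change could not have been seen, and no fold is given. LIN28A, the paralog of LIN28B, was between 1.65 and 2.25 and likewise under the limit.

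Butyrate and NaCl were each compared with medium as single arrays, with no replicate check. HMGA2 read 4.70 in butyrate and 7.11 in NaCl, against 9.19 in medium. It was thus at least 18.2-fold lower in butyrate than in medium, taking the limit of 5 as the butyrate value, and 4.21-fold lower in NaCl. IGF2BP3 read 8.43 in butyrate and 8.39 in NaCl, against 9.41 in medium, so both treatments stood lower (-0.98 and -1.02). Its second probe set had -1.38 in butyrate and -1.05 in NaCl. Another, under 5 in both treatments, had -1.28 and -1.61. Both were lower on each of these probe sets, but which was lowest depended on the probe set. On the probe set used IGF2BP3 just missed a difference of 1 in butyrate. IGF2BP2 read 9.68 in butyrate and 9.84 in NaCl, against 9.54 in medium. HMGA1 read 10.97 in butyrate and 10.42 in NaCl, against 10.74 in medium. A difference of at least 1 was counted for 1 of 4 members in butyrate against medium, beside 31.2% of all genes compared, and for 2 of 4 in NaCl against medium, beside 16.6%. HMGA2 was lower in butyrate than in NaCl by at least 2.11, the 1 of 4 members past 1 there, beside 33.0% of genes, and IGF2BP3 differed by 0.04 on the probe set used.

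Set against the single medium array, the fluids split the members. HMGA2, as the mean of 4 vessels, was at -1.17 with 0%, -2.21 with 1% and -3.14 with 2% polydextrose, so it was lower than in medium even without polydextrose. In each of these comparisons HMGA2 was the 1 of 4 members past a difference of 1, beside 12.6% of all genes at 0%, 19.7% at 1% and 23.2% at 2%. In vessel 1 it came closest to medium, 8.79 at 0% against 9.19. IGF2BP3 was at 0.07, -0.19 and -0.37 with 0%, 1% and 2%, and IGF2BP2 was above medium by 0.70, 0.76 and 0.62. HMGA1 was at 0.09, 0.13 and -0.01. These comparisons share the single medium array, so they have no replicate check on that side. Against butyrate, HMGA2 with 2% polydextrose was higher by 1.04 on the mean of 4 vessels, with butyrate set to the limit, again 1 of 4 members and beside 5.00% of all genes. Vessels 2 to 4 alone, at 5.26 to 5.42, lay just above that limit. IGF2BP3 with 2% was higher than in butyrate by 0.61 and IGF2BP2 by 0.48.

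The 5 genes most like HMGA2 across the 15 arrays were HMMR, DLGAP5, CEP55, BORA and NEK2. HMMR, a spindle protein, had a Pearson r of 0.99, and DLGAP5, a spindle protein, CEP55, needed for the last step of division, BORA, an activator of Aurora kinase, and NEK2, a centrosome kinase, each had 0.98. These are descriptions over arrays that share treatments. The HMMR slope was -0.23 per 1% in vessel 1 and -0.80 in vessels 2 to 4, a difference of 0.57, and BORA had a difference of 0.75. Because both genes were picked for following HMGA2 over these arrays, no test is given. IGF2BP3 was most like TTC39A (r 0.97), C3orf52 (r 0.96) and HMGN4, a nucleosome-binding protein (r 0.96). IGF2BP2 was most like MPRIP, which binds myosin phosphatase (r 0.95), PPP1R13L and DENND5A (both r 0.92), and HMGA1 was most like DCAF7 (r 0.90), RANBP10 (r 0.89) and the kinase CDC42BPB (r 0.88). Among the members themselves HMGA2 and IGF2BP3 had an r of 0.78, and HMGA2 with IGF2BP2 had 0.17.

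Cell division genes moved along with HMGA2, and their part in its result was not tested. All 24 genes of the list fell and passed at 2% against 0%, where 20.8% of all genes passed in either direction (median -1.03, against -0.01 over all genes tested). Among them were UBE2C (-1.40), KIF11 (-1.13) and TPX2 (-0.98). CENPE was at -1.35, but at 2% it read 3.67 to 4.95, under the limit of 5, so the size of its fall is uncertain. The list was chosen with earlier results of these data known, so its counts are no independent evidence. All 24 also fell with concentration and passed in vessels 2 to 4, beside 28.0% of all genes in either direction. Their slopes there ran from -0.96 (PLK1) to -0.32 (NUSAP1) per 1%, where HMGA2 had -1.21. All 24 were also higher in vessel 1 than in vessels 2 to 4 and passed, beside 34.7% of all genes in either direction. Their slope difference between vessels was positive for 23 of 24, from -0.06 (CENPE) to 0.60 (PLK1), with a median of 0.29 against 0.02 over all genes. None of the 24 passed for it in limma, 11 had an unadjusted p under 0.05 (16.6% of all genes did), and the smallest adjusted p was 0.0787 for UBE2C (0.43). HMGA2, at 0.91, lay above this range and was rank 40 from the highest of 8737 genes. HMGA2 was set against these genes only by range, and the difference between it and them was not tested.

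**Figure D4:**
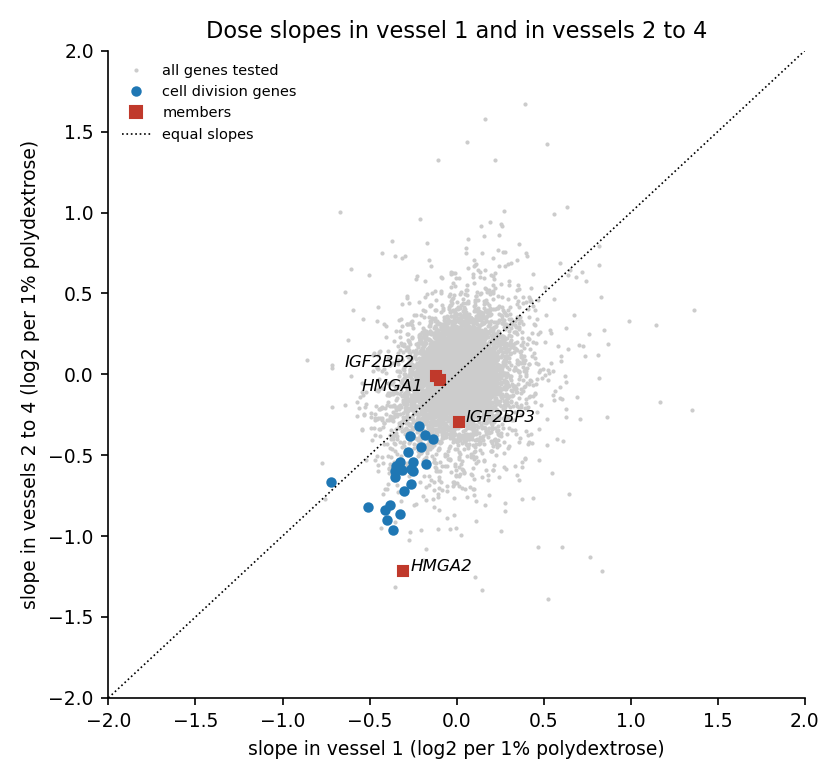
Each point is 1 of the 8737 tested genes, with its slope in vessel 1 on the x axis and its slope in vessels 2 to 4 on the y axis, in log2 per 1% polydextrose; 2 genes outside the plotted range are not drawn. HMGA2 (-0.31 and -1.21) lies below the dotted line of equal slopes and below all 24 cell division genes in blue, while IGF2BP2 and HMGA1 lie near the origin. Of the blue points, PLK1 and CENPE rest in part on values under 5.

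Other genes of the let-7 axis moved in both directions. Of 10 tested let-7 target genes, from a list of 20 of which 16 were matched to the array, 2 fell, 3 rose and 5 did not pass at 2% against 0%, where 20.8% of all genes passed (median 0.05, against -0.01 over all genes). MYC, a growth-promoting transcription factor, fell by 0.67 (adjusted p = 0.00658) and DICER1, the enzyme that cuts precursors into mature microRNAs, fell by 0.49 (adjusted p = 0.0102). IRS2, an adaptor of the insulin receptor, rose by 0.48 (adjusted p = 0.0187). CCND2, a D-type cyclin, is also counted as a rise (0.86). It read 3.69 to 4.83 at 0% and 3.11 to 3.82 in vessel 1, under the limit of 5. CCND2 reached 5 only on arrays of vessels 2 to 4 at 1% and 2%, so its rise is uncertain and given with no p. MYC read 11.07, 11.11 and 10.89 in vessel 1 at 0%, 1% and 2%, while vessels 2 to 4 at 2% read 9.92, 9.92 and 10.10. The MYC slope difference of 0.33 did not pass (adjusted p = 0.132). Of 13 tested genes of microRNA processing and let-7 turnover, 4 fell, 1 rose and 8 did not pass, beside the same 20.8% (median -0.15). Besides DICER1, those that fell were TARBP2, a DICER1 partner (-0.27), DROSHA, which cuts primary microRNA transcripts (-0.24), and AGO4, an Argonaute protein (-0.65). The lists overlap in DICER1.

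A long transcript that hosts let-7 genes, MIRLET7BHG, was looked at after its values were seen. It read between 7.92 and 8.33 in the 12 fluids (median 8.15), 8.10 in butyrate and 6.96 in NaCl, against 6.94 in medium. Butyrate and every fluid array were thus higher than medium and NaCl, and the fluid arrays overlapped across concentrations. At 2% against 0% MIRLET7BHG was at 0.11 (adjusted p = 0.374, limma).

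Among mRNAs known to be bound by IGF2BP proteins, 2 of 10 tested fell and 8 did not pass at 2% against 0% (median 0.05), a share near the 20.8% of all genes. They were CD44, a cell-surface receptor for hyaluronan (-0.71, adjusted p = 0.00294), and MYC. CD44 read 10.15, 9.69 and 9.71 in vessel 1 at 0%, 1% and 2%, and 8.77, 8.59 and 8.89 at 2% in vessels 2 to 4. Of 9 tested protein partners of IGF2BP1, SYNCRIP (-0.44, adjusted p = 0.0103) and HNRNPU (-0.24, adjusted p = 0.0356), both RNA-binding proteins of the hnRNP family, fell and 7 did not pass (median -0.11). Of 10 tested writers, readers and erasers of m6A, 0 passed in limma and 2 had an unadjusted p under 0.05, beside 36.4% of all genes (median 0.06), with METTL14, a writer subunit, at 0.22 (adjusted p = 0.0724). Of 3 tested further oncofetal genes, PLAGL1, MEST and TPBG, 0 passed in limma, with 0 at an unadjusted p under 0.05 (median -0.07). These medians stand beside -0.01 over all genes tested.

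Other HMG proteins, which share the name of the HMGA family but bind DNA through an HMG box or bind nucleosomes, changed in part. Of 8 tested, 3 fell at 2% against 0%, where 20.8% of all genes passed. They were the DNA-bending proteins HMGB2 (-0.94, adjusted p = 0.00464), HMGB3 (-0.69, adjusted p = 0.00283) and HMGB1 (-0.45, adjusted p = 0.00473). The nucleosome-binding HMGN5 rose by 0.46 (adjusted p = 0.0161), and 4 did not pass (median of the 8 -0.16). HMGB2 read 11.89, 11.84 and 11.51 in vessel 1 and 10.44, 10.11 and 10.64 at 2% in vessels 2 to 4, and its slope difference of 0.38 did not pass (adjusted p = 0.163). Of 5 tested genes linked to HMGA proteins, the cyclins CCNA2 (-1.07, adjusted p = 0.00125) and CCNB2 (-0.92, adjusted p = 0.00441) fell and 3 did not pass (median 0.11), beside the same 20.8%. Both cyclins also stand in the cell division list. For the difference of dose slopes 0 genes of each of these lists passed in limma, with 4 of 10 let-7 targets, 2 of 13 microRNA processing genes, 2 of 10 IGF2BP-bound mRNAs, 3 of 10 m6A genes 1 of 8 HMG genes and 1 of 5 HMGA-linked genes at an unadjusted p under 0.05, beside 16.6% of all genes.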

How the data were processed

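Total RNA from 15 Caco-2 cultures was hybridised to Affymetrix arrays, 1 array per treatment, per the labels' protocols. The authors deposited 1 table of log2 values for 54675 probe sets, made with GCRMA per the submitters' processing notes, which corrects background, normalizes and summarizes probes (the version is not given in the sources used here). That the deposited values, 0.173 to 14.46, are log2 was inferred from their range. No value was normalized again and no pseudocount was used. Arrays give no read depth, so only their number limits the precision.

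Of the probe sets, 41097 had 1 gene symbol in the platform annotation and were used, for 19775 genes. A gene with more than 1 probe set (10523 genes) was read from the one with the highest mean over 15 arrays. Genes at 5 or more on at least 4 of 12 fluid arrays were tested (8737). The limma fits (limma 3.58.1, R 4.3.3) had concentration and vessel as factors, with 6 residual degrees of freedom, or, for dose slopes, vessel, concentration as a linear term and its product with vessel 1. Two-sided p-values were adjusted over all genes tested by Benjamini-Hochberg, with a threshold of 0.05. Single arrays were compared as differences, for genes at 6 or more on the brighter side, counted from 1, with a value under 5 set to 5. The fits were tested on simulated data.

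With the concentration mean taken out, the median correlation within the 12 same-vessel pairs was 0.376, and 10 were above 0.1; the vessel number names a place in the simulator and is the block here.

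The members and the lists were chosen with earlier results of these data known. Genes named are the 6 members, up to 4 genes per list with the smallest p for 2% against 0% and up to 2 for the slope difference (only the most telling are printed), and the 5 genes most correlated with HMGA2 (3 for other members). Alternatives were other filters, the mean of probe sets, other probe sets, normalization again, centring, other spread estimates, no block and leaving out each array. Some genes written into the lists were not matched to the array annotation and are not reported here. Sequences are from RefSeq tables, GRCh38.p14.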

Additional observations from a re-analysis of the deposited data

Results flagged for a closer look

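In 3 of 12 sets of 4 arrays (the 4 tested genes at 3 concentrations) vessel 1 stood apart by Dixon's criterion, the gap to the nearest array as a share of the whole range. This share was 0.965 for HMGA2 at 1%, 0.945 for HMGA2 at 2% and 0.890 for IGF2BP3 at 1%, above the 95% critical value for 4 arrays. Chance gives such a gap in about 1 in 20 sets, and over all 8737 genes tested vessel 1 stood apart in this way in 4.15% at 0%, 10.4% at 1% and 7.95% at 2%. The apart array was the same vessel each time, at 8.50 for HMGA2 at 1%, 8.17 for HMGA2 at 2% and 9.59 for IGF2BP3 at 1%. The dose slope of HMGA2 differed between vessel 1 and vessels 2 to 4 by 0.91 log2 per 1% of polydextrose, with an adjusted p = 0.0144 in limma. HMGA2 was chosen on some of the same arrays, so this is no independent evidence.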

How the results depend on the processing

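The vessel number served as the replicate block, and concentration did so for vessel 1 against vessels 2 to 4. Without vessel as a block, 0 members passed for 2% against 0%, where 2 passed with it (adjusted p = 0.214 for IGF2BP3). Without concentration as a block, 0 members passed for vessel 1 against vessels 2 to 4, where 3 passed with it. Across all alternatives the count over all genes also moved. It ran from 0 to 3205 for 2% against 0% (1820 in the main fit). For vessel 1 against vessels 2 to 4 it ran from 0 to 4560 (3035 in the main fit). Averaging all probe sets of a gene drops HMGA2 below the filter, so HMGA2 has no value there and 1 member passed for 2% against 0%, 1 for the slope in vessels 2 to 4 and 0 for the slope difference, with 0 past a difference of 1 in NaCl against medium, butyrate against NaCl, each fluid against medium and 2% against butyrate. With an intensity trend and robust prior 1 member passed for 1% against 0%, and without vessel 1, 2 passed for it and 1 for 2% against 1%. The counts without vessel 1 include HMGA2, for which they describe the choice. Leaving out single arrays, 1 to 2 members passed for 2% against 0%, 0 to 2 for 1% against 0%, 0 to 1 for 2% against 1%, 0 to 1 for the slope difference and 1 to 4 for vessel 1 against vessels 2 to 4. Over all genes the same fits passed, in this order, 656 to 3058, 0 to 1185, 0 to 579, 0 to 781 and 1656 to 3704.

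Signs turned only for values that did not pass. For 1% against 0%, HMGA1 was at -0.0292 on the mean of probe sets, -0.0455 without vessel 1, -0.10 on its other probe set and -0.0612 to 0.18 with single arrays left out, and IGF2BP2 was at -0.0696 on the mean and -0.00189 to 0.14 with arrays left out. For the slope difference, HMGA1 was at 0.00570 on the mean of probe sets, 0.0740 on its other probe set and -0.48 to 0.35 with arrays left out, and IGF2BP2 was at 0.15 and -0.39 to 0.17. The slope of IGF2BP2 in vessels 2 to 4 was -0.0412 to 0.00309 with arrays left out. In vessel 1 the slope of IGF2BP2 was 0.0455 on the mean of probe sets and -0.40 to 0.16 with arrays left out, that of IGF2BP3 was -0.0367 on the mean, -0.11 on another probe set and -0.0382 to 0.0616, and that of HMGA1 was -0.51 to 0.32. The cause was not tested. In vessels 2 to 4 the slope of HMGA2 lay between -1.26 and -1.17 with single arrays left out. HMGA2 at 2% in vessels 2 to 4 and in butyrate lies near or under the limit of 5, so its lowest levels are the least certain.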
